A study of Mus musculus with 66 samples.

Results

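Histone H3.3 was mapped by chromatin immunoprecipitation and sequencing in mouse cortical neurons after 2 hr of depolarisation with KCl, and the 689 genomic regions listed as changed are described here, of 57678 regions in the 7 deposited tables of the series. All regions of the 2 hr H3.3 table were taken, so that no measured value chose among them. KCl-treated neurons (KCl 2 hr, 3 libraries and 1 input) were set against unstimulated neurons at the same time (Control, no stimulation, 2 hr, 3 libraries and 1 input). Both groups were primary cortical neurons of C57bl/6 mice taken at E16.5, late in gestation, and kept to 8 days in vitro, with no transgene or deletion named in the labels. Potassium was raised in an isotonic medium, which depolarises all cells of a culture at once and is not a synaptic stimulus. The submitters' protocol calls the 3 samples of each group biological triplicates.

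Nucleosomes can receive the variant histone H3.3 at any stage of a cell's life, whereas the canonical H3 proteins enter chromatin mainly when DNA is copied. In cells that no longer divide, such as neurons, it becomes the main source of new H3. The HIRA complex places it at transcribed genes and regulatory elements, and the ATRX and DAXX proteins place it at silent repeats. Depolarisation opens calcium channels, and the calcium signal switches on immediate-early genes first and other activity genes later.

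H3.3 was lower after KCl at 590 of the 689 regions and higher at 99. Of the lower regions 588 passed an adjusted p of 0.05 in the authors' deposited table, which is 85.3% of all listed regions, and of the higher regions 98 passed, which is 14.2%. Together 99.6% of the listed regions passed. The table holds only regions already selected, with a smallest absolute log2 fold change of 1.59 and a largest window p of 9.99e-05 in the authors' deposited table. Counts of passing regions in any gene list below therefore carry no information beyond the listing itself, and the direction is what is compared. Regions lower after KCl are called lost and regions higher after KCl gained. The 3 regions that did not pass lay in Nudt4, with 5.02 ± 1.24 normalised reads in KCl against 15.6 ± 4.73 in control (SD, n = 3 each), in St8sia1, with 3.41 ± 3.41 in KCl against 12.8 ± 1.79 in control, and between genes on chromosome 10, with 12.4 ± 3.46 in KCl against 3.43 ± 1.44 in control. Their adjusted p-values in the authors' deposited table were 0.0559, 0.0537 and 0.0763.

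The values rest on few reads. A normalised count in the table is a whole number of reads times a factor per library, and 1 read was worth 0.919, 0.758 and 1.36 normalised reads in the KCl libraries and 1.02, 0.833 and 1.23 in the control libraries. Summed over 3 libraries, a lost region had a median of 10 reads in KCl and 37 in control, and a gained region 37 in KCl and 9 in control. The median normalised count of lost regions was 2.76, 3.03 and 2.72 in the KCl libraries, against 11.2, 12.5 and 12.3 in the control libraries. The median of gained regions was 11.0, 11.4 and 12.3 in the KCl libraries, against 3.05, 3.33 and 2.45 in the control libraries. No library of either group stood apart from its group in these medians. The 3 KCl and 3 control values did not overlap at any listed region, 100.0% of the table, which the selection of regions favours. The lowest mean of the higher group was 10.03 normalised reads at gained and 10.07 at lost regions. Over all listed regions the recovered reads summed to 3277, 4166 and 2279 in the KCl libraries and to 7090, 9410 and 6618 in the control libraries, and the total depth of each library was not known here. Intervals given below cover counting error only. With 3 libraries against 3, an exact two-sided permutation test cannot give a p below 0.1, so no test was made for single regions and the authors' p-values are quoted. By the titles, all KCl immunoprecipitations carried lane number 7 and all control immunoprecipitations lane number 6, while both inputs carried lane number 8, so treatment and lane cannot be told apart in these counts. A change in H3.3 per cell and a change in the share of cells that carry it cannot be told apart either.

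**Figure D1:**
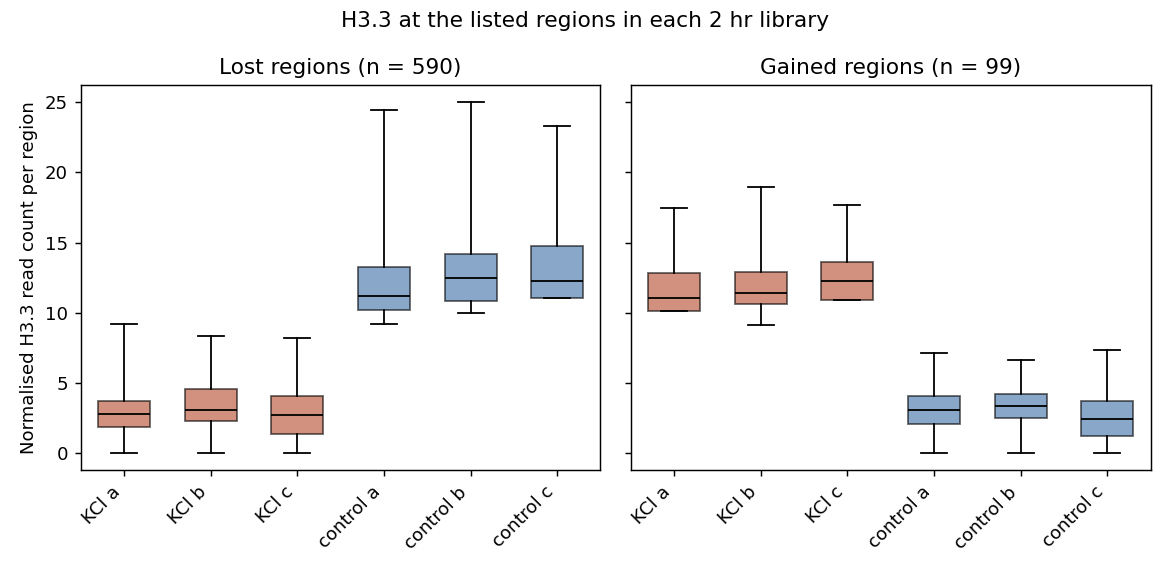
Normalised H3.3 read count per listed region (vertical axis) in each of the 3 KCl and 3 control libraries (horizontal axis), for lost regions on the left and gained regions on the right; boxes give the quartiles and the median, whiskers the lowest and highest region. In lost regions the KCl medians sit between 2.72 and 3.03 and the control medians between 11.2 and 12.5, and gained regions show the opposite order.

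The sequences of the 3 largest gains and the 3 largest losses that met the conditions for naming are printed as the plus strand of mm9 (NCBIM37), 5′ to 3′. Every CG dinucleotide, the site of DNA methylation, is in capitals. In order, the gained ones lie in a coding exon of Iqsec1 and in introns of Nkain1 and Cacna1b, and the lost ones in introns of Pkhd1l1, Bnip2 and Pcgf3.
Iqsec1 chr6:90626721-90626920: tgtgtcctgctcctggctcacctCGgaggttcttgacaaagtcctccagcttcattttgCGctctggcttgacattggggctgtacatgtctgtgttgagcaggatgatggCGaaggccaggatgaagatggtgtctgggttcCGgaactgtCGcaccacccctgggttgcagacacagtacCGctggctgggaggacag
Nkain1 chr4:130131781-130131980: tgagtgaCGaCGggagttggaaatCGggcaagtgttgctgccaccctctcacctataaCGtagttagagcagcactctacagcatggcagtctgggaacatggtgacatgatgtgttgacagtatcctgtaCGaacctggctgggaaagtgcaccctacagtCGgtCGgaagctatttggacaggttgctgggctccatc
Cacna1b chr2:24521401-24521600: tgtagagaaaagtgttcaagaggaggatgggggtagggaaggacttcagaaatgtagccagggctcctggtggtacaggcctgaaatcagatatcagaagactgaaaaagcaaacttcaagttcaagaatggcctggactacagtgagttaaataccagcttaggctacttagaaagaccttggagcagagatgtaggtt
Pkhd1l1 chr15:44290221-44290440: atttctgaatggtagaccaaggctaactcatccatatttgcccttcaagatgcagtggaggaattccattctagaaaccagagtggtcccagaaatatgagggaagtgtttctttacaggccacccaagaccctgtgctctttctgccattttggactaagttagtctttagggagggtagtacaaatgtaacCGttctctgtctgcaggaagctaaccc
Bnip2 chr9:69838121-69838320: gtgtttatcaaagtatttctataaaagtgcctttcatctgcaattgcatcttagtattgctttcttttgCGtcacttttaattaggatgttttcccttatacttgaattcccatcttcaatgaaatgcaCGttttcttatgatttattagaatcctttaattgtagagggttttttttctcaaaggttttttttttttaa
Pcgf3 chr5:108892521-108892740: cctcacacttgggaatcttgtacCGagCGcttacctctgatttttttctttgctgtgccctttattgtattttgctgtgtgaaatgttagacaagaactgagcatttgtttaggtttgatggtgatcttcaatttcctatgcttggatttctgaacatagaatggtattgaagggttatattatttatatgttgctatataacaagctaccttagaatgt

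GC made up 57.0%, 53.0% and 45% of the gained sequences and 45%, 28.5% and 35.5% of the lost ones in the same order. The Iqsec1 and Nkain1 sequences held 6 and 7 CG dinucleotides and the Cacna1b sequence 0, while the lost sequences held 1, 2 and 2. These sequences do not stand for the table, where the median number was 1 in gained and 2 in lost regions.

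The largest gain was at Iqsec1, an exchange factor that activates Arf GTPases at the postsynaptic side. It had 10.1, 9.85 and 10.9 normalised reads in the KCl libraries, against 0, 2.50 and 1.23 in the control libraries. At Iqsec1, 32 reads in KCl (exact Poisson 95% interval 21.9 to 45.2, counting error only) stood against 4 in control (1.09 to 10.2). Its log2 fold change in the authors' deposited table was 3.05 (adjusted p = 0.01). Nkain1, whose product interacts with the sodium pump, had 11.0, 9.09 and 10.9 in KCl against 0, 1.67 and 3.68 in control. Cacna1b, the pore subunit of the N-type calcium channel that triggers transmitter release, had 11.0, 14.4 and 12.3 in KCl against 3.05, 4.17 and 0 in control. At each of these genes 1 control library held no read, so the fold changes lean on very small denominators. Dgkb, a diacylglycerol kinase of forebrain neurons, had 11.9, 11.4 and 10.9 in KCl against 2.04, 5.00 and 0 in control. Pak6, a p21-activated kinase, had 12.9, 12.9 and 12.3 in KCl against 2.04, 5.00 and 1.23 in control. Slc2a1, the glucose transporter GLUT1, had 13.8, 12.1 and 13.6 in KCl against 2.04, 4.17 and 2.45 in control, at a region 1105 bp upstream of its start. Spag16, a protein of motile cilia, and Rad54l2, a helicase, completed the 8 largest gains with 10.0 ± 0.903 and 13.9 ± 2.31 in KCl against 2.20 ± 1.06 and 3.09 ± 1.89 in control. The conditions under which these 8 were chosen, given below, required KCl and control values that did not overlap. The size of 5 of these gains depended on single control libraries. With 1 control library left out at a time, the log2 fold change ran from 2.46 to 4.06 at Iqsec1, from 1.95 to 3.63 at Nkain1, from 1.80 to 3.04 at Cacna1b, from 1.70 to 3.48 at Dgkb and from 1.85 to 2.95 at Pak6.

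Among the losses that met the conditions given below, the largest was at Pkhd1l1, a large cell-surface protein known from hair cells and the immune system. It had 0, 3.03 and 1.36 normalised reads in KCl against 9.16, 13.3 and 12.3 in control. The lowest log2 fold change of any lost region in the authors' deposited table was -3.73. Bnip2, a scaffold protein that binds BCL2 relatives, had 0.92, 0.76 and 2.72 in KCl against 10.2, 10.8 and 11.1 in control. Pcgf3, a subunit of Polycomb repressive complex 1, had 2.76, 1.52 and 1.36 in KCl against 12.2, 12.5 and 12.3 in control. The control libraries agreed closely at Bnip2 and Pcgf3, and the reads summed to 4 in KCl (1.09 to 10.2) against 32 in control (21.9 to 45.2) at Bnip2 and to 6 (2.20 to 13.1) against 37 (26.1 to 51.0) at Pcgf3. Negr1, a neuronal adhesion molecule of the IgLON family, had 1.84, 1.52 and 1.36 in KCl against 9.16, 10.0 and 11.1 in control. Park2, the ubiquitin ligase parkin, had 0.92, 3.03 and 1.36 in KCl against 10.2, 10.0 and 12.3 in control. These 2 regions lay deep in introns, 581167 and 282089 bp from the start of the deposited transcript. Cuedc1, Fam116b and Bre had means of 1.93 ± 1.68, 1.93 ± 1.68 and 1.72 ± 1.92 in KCl against 11.6 ± 0.797, 11.5 ± 2.52 and 10.1 ± 0.947 in control. The log2 fold changes of the 8 losses in the authors' deposited table ran from -2.98 at Pkhd1l1 to -2.55 at Bre. Pkhd1l1, Cuedc1, Fam116b and Bre each had 1 KCl library with no read. With 1 library left out at a time, the log2 fold change ran from -4.09 to -2.40 at Pkhd1l1, from -3.89 to -1.97 at Bre, from -3.67 to -2.55 at Bnip2, from -3.25 to -2.30 at Park2, from -3.07 to -2.0 at Cuedc1 and from -3.05 to -1.98 at Fam116b.

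**Figure D2:**
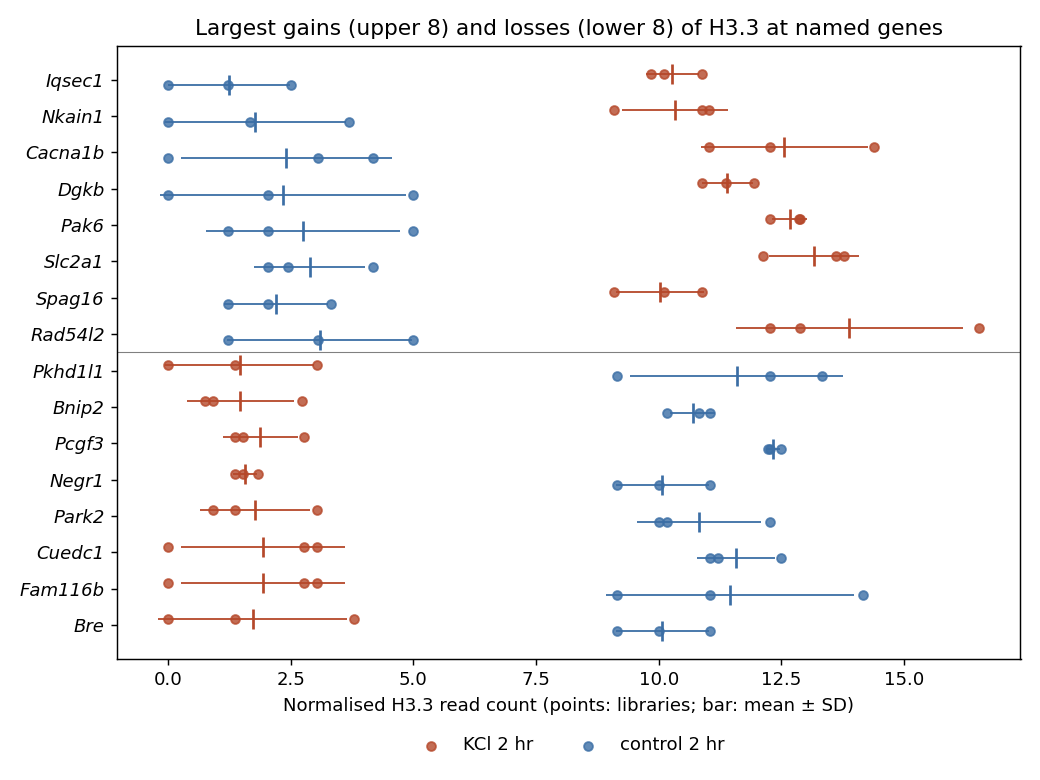
Normalised H3.3 read count (horizontal axis) at the 8 largest gains and the 8 largest losses that met the conditions for naming (vertical axis, one gene per row), KCl above control in each row. Points are libraries and bars mean ± SD (n = 3 each). At Iqsec1 the KCl libraries sit between 9.85 and 10.9 and the control libraries between 0 and 2.50, and at Pcgf3 the KCl libraries sit between 1.36 and 2.76 and the control libraries between 12.2 and 12.5.

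The longest regions include some with the most reads. The longest region of the table, 360 bp in the 3′ UTR of Arl5b, a small GTPase of the trans-Golgi, had 2.76, 6.06 and 8.17 normalised reads in KCl against 22.4, 17.5 and 23.3 in control. A region of 300 bp between genes on chromosome 5 had 9.19, 6.82 and 6.81 in KCl against 24.4, 25.0 and 22.1 in control, the most reads of any listed region in the control group (72). The other lost region among the 3 longest, also 300 bp and between genes, had 4.41 ± 2.14 in KCl against 16.8 ± 3.26 in control. The 3 longest gained regions were 280 and 260 bp in gene deserts of chromosomes 13 and 15, with 15.6 ± 0.856 and 13.3 ± 1.27 in KCl against 3.76 ± 1.30 and 1.92 ± 0.643 in control, and 260 bp in an intron of Rcbtb1, with 13.6 ± 0.770 in KCl against 3.79 ± 2.82 in control.

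Set against sheared input chromatin, the listed regions were mostly above input in the group with more H3.3 and below it in the other. At lost regions the authors' deposited ratio to input had a median of 0.61 in KCl and 2.26 in control, and it was below 1 in KCl at 437 of 590 regions (74.1%) and in control at 10 (1.69%). At gained regions the median was 2.31 in KCl and 0.48 in control, and it was below 1 in KCl at 2 of 99 regions (2.02%) and in control at 88 (88.9%). At the median lost region H3.3 thus stood above input in control and below it in KCl, and at the median gained region the order was the opposite. The listing on the same counts favours this order. The scaling of input is not given either, so a ratio of 1 marks no known level of H3.3. The ratio moved the same way as the count at 640 of 669 regions where both ratios were finite, and the listing on the same count favours this. At lost regions the log2 ratio of KCl input over control input had a median of -0.07 and lay between -1.60 and 1.08 from the 10th to the 90th percentile, and input was lower in KCl at gained regions, at -0.37. Input was 1 library per group, so these values have no spread. At 19 regions the KCl input and at 2 the control input held no read, which left Dlg2 and Sqle among the regions without a finite ratio.

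At 29 regions with finite ratios the direction relative to input did not match the count. Among the first of them in genome order, Bai3, an adhesion receptor, had 2.84 ± 0.169 normalised reads in KCl against 11.6 ± 0.797 in control, but 1.84 times input in KCl against 1.25 times in control. Ptprk, Hddc2 and 1 of 3 regions of the kinase gene Fyn did the same, with 1.59, 1.22 and 2.40 times input in KCl against 1.30, 1.13 and 1.22 times in control. The input level implied by count and ratio at Bai3 was 1.54 in KCl and 9.26 in control. These losses are seen in the count alone.

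**Figure D3:**
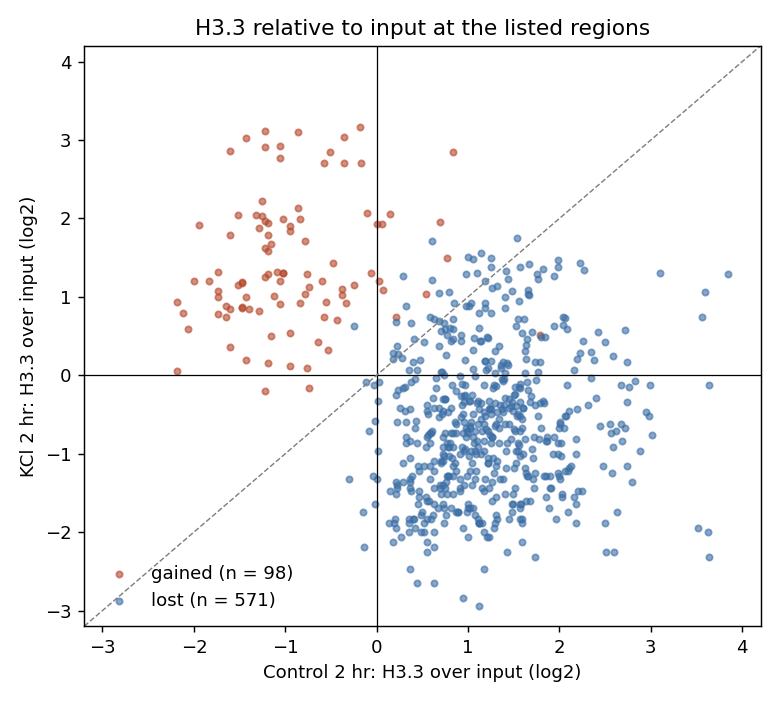
H3.3 over input in KCl (vertical axis, log2 of the deposited ratio) against control (horizontal axis, log2) at the 669 regions with finite ratios, one point per region; the dashed line marks equal ratios and the solid lines a ratio of 1. Gained regions lie mostly above 1 in KCl and below 1 in control, and most lost regions lie below 1 in KCl and above 1 in control.

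The position of the regions relative to genes depended on how the deposited distances were read. By the classes in the authors' deposited table, 109 of 590 lost (18.5%) and 13 of 99 gained regions (13.1%) carried a promoter class, 309 (52.4%) and 40 (40.4%) a gene body class, and 172 (29.2%) and 46 (46.5%) an intergenic class. The deposited distance to the gene start was taken from the lower coordinate of the gene at all 270 regions assigned to plus-strand genes, where the gene starts, and also at all 201 regions assigned to minus-strand genes, where the gene ends. All 50 promoter-class regions of minus-strand genes therefore lay within 3 kb of the annotated gene end, and 11 of them lay within 3 kb of the strand-aware start as well, in short transcripts. The 30 min table has the same property, at 192 of 192 regions of minus-strand genes, and the 5 hr table does not, at 0 of 225. Of the promoter-class regions 72 lost and 11 gained were left near a start when strand was respected. A further 6 lost regions of the gene body class turned out to lie within 3 kb of a start.

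**Figure D4:**
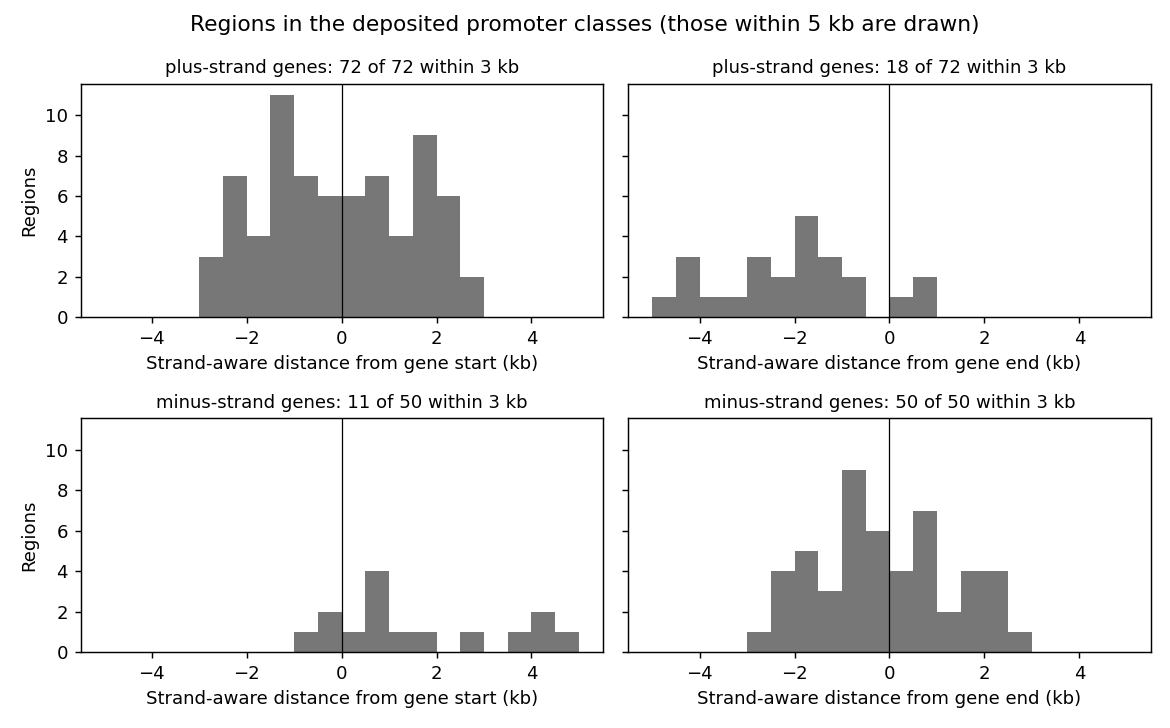
Number of regions in the deposited promoter classes (vertical axes) by strand-aware distance in kb (horizontal axes) from the gene start on the left and the gene end on the right, for plus-strand genes above and minus-strand genes below. All 72 plus-strand regions lie within 3 kb of the start, whereas of the 50 minus-strand regions 11 do and all 50 lie within 3 kb of the end.

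Against the protein-coding genes of the GENCODE M1 annotation of the same genome build, 53 lost (8.98%, exact 95% interval 6.80 to 11.6) and 6 gained regions (6.06%, 2.26 to 12.7) lay within 3 kb of a gene start, and such windows make up 4.83% of the sequenced genome. Within 3 kb of a gene end lay 47 lost (7.97%, 5.91 to 10.5) and 5 gained regions (5.05%, 1.66 to 11.4), and these windows make up 4.78% of the genome. Genes covered 65.8% of lost and 51.5% of gained regions and 38.8% of the genome. Introns held 334 lost and 45 gained regions and exons 54 and 6. These shares are descriptions, since the table gives no list of regions at which H3.3 could be measured and did not change. Counting a single start per protein-coding gene, the median distance to the nearest start was 47506 bp for lost and 46739 bp for gained regions. Other starts within a gene were not counted. The Bre region, for example, lay 2229 bp from its deposited start and 55700 bp from the nearest counted start. No such distance was taken over the genome.

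Several losses that the deposited classes name as promoters lay at the 3′ end of the deposited transcript. Hnrnpu, a nuclear RNA-binding scaffold, was lost in an intron 355 bp before the end of the deposited transcript, with 3.68, 5.30 and 2.72 normalised reads in KCl against 11.2, 14.2 and 18.4 in control. Hnrnpc, a packager of nascent RNA, was lost in a coding exon 365 bp before the end of its deposited transcript, with 3.74 ± 1.48 in KCl against 13.0 ± 3.69 in control. Id2, an inhibitor of basic helix-loop-helix factors, was lost 1915 bp past its end, with 3.80 ± 1.59 in KCl against 15.1 ± 1.97 in control. Cand1, a regulator of cullin ubiquitin ligases, was lost 810 bp past its end, with 4.56 ± 0.885 in KCl against 13.8 ± 1.84 in control, and the exocyst gene Exoc2 957 bp past its end, with 3.34 ± 1.05 in KCl against 12.8 ± 1.95 in control. The retinoic acid receptor gene Rara, on the plus strand and in the gene body class, was lost 324 bp past its end. Some of these regions lay in a neighbouring gene and cannot be given to a single one. The region assigned to Tuba4a, an alpha-tubulin, was in the 3′ UTR of the kinase gene Stk16, and the region assigned to the clathrin gene Cltc was in the 3′ UTR of Ptrh2. The 5 gains near an annotated gene end were at Fzr1, Ptgs2, Efcab1, Ddah1 and Ccr9. Fzr1, an activator of the anaphase-promoting complex, had 13.1 ± 3.12 in KCl against 3.83 ± 1.22 in control, 26 bp past the end of the deposited transcript.

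Near true gene starts the losses included Reln, Senp5, Spast, Reep1, Rps23, Rpl18, Cirbp, Bambi, Ufm1 and Nop2. Reln, the secreted guidance protein of Cajal-Retzius cells and interneurons, had 1.84, 5.30 and 1.36 normalised reads in KCl against 14.3, 10.0 and 12.3 in control, in a coding exon 599 bp from the deposited start with 14 CG dinucleotides, the most in the table. Spast and Reep1, both needed for shaping tubular endoplasmic reticulum in axons, were lost 1953 and 1895 bp into the gene, with 3.09 ± 1.38 and 2.94 ± 3.03 in KCl against 11.2 ± 1.17 and 13.8 ± 2.40 in control. These genes were picked after their values were seen. The 6 gains near a start included those at Slc2a1, Rap1a, Lyz2, Gm6498 and 4930404N11Rik.

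Of the 218 regions with no gene in the deposited table, 40 lay in or within 10 kb of an annotated protein-coding gene, 29 lost and 11 gained. A gained region of chromosome 1, starting at 151957961, lay 2821 bp past the end of Ptgs2, the activity-induced cyclooxygenase COX-2, with 10.1, 12.9 and 12.3 normalised reads in KCl against 2.04, 1.67 and 2.45 in control. All KCl values were over 3 times every control value there, and the ratio to input was 1.91 in KCl and 0.22 in control. The log2 fold change in the authors' deposited table was 2.52 (adjusted p = 0.0107). Other regions carried the name of a neighbour or of a small RNA. The region named AI504432 lay in a coding exon of Kcna3, a voltage-gated potassium channel, with 2.58 ± 1.72 in KCl against 11.8 ± 1.66 in control. A region named after a U1 RNA copy lay in an intron of Mtap2, the dendritic microtubule protein MAP2, with 3.04 ± 1.38 in KCl against 13.5 ± 3.40 in control. A lost region named Nop2 lay 52 bp from Chd4, the NuRD remodeller, and a lost region named Chst15 lay within the annotated spans of both Chst15 and Fgfr2. These examples were chosen with their values known.

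Base composition differed between the directions. The median GC content was 44.5% in lost and 49.0% in gained regions, against 41.5% over 200 bp windows of the genome. Of the 230 regions of lowest GC (28.5 to 42.7%) 9 were gained (3.91%), of the next 239 (42.9 to 48.0%) 30 (12.6%), and of the 220 of highest GC (48.2 to 62.5%) 60 (27.3%). Input was 1 library per group and both inputs carried lane number 8, so it cannot show a difference between the immunoprecipitation lanes. At lost regions the median log2 ratio of KCl input over control input was -0.02, 0.05 and -0.27 in the low, middle and high GC groups, and at gained regions it was -0.47, -0.49 and -0.23. With 500 bp added on each side the medians were 43.3% in lost and 45.1% in gained regions. The part of base composition in the direction was not tested. The median number of CG dinucleotides was 2 in lost and 1 in gained regions, so the higher GC of gained regions did not come with more CG sites.

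Recognition sequences of activity-dependent factors were present at shares close to those of the genome. On either strand of the central 200 bp, the AP-1 sequence TGANTCA, bound by FOS and JUN proteins, was found in 38 lost (6.44%) and 8 gained regions (8.08%), against 5.93% of all 200 bp windows of the genome. The cyclic AMP response element TGACGTCA was in 0 lost and 0 gained regions, against 0.107% of windows. The E-box CACGTG was in 14 lost (2.37%) and 2 gained regions (2.02%), against 1.95%, and the GC box GGGCGG in 7 lost (1.19%) and 1 gained region (1.01%), against 1.96%. No motif contains another, both strands were searched, and a match is only a match of letters.

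Chromosome X held 2 listed regions, both lost, which is 0.290% of the table, while it makes up 6.34% of the sequenced genome. The autosomes had 22.4 to 37.1 listed regions per 100 Mb and chromosome X had 1.23. The 30 min and 5 hr tables held 1 and 5 regions on chromosome X (0.219% and 0.750%).

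The regions with a deposited gene were assigned to 432 gene names, of which 380 had only lost, 47 only gained and 5 both kinds of region. Over these 471 regions 88.7% were lost and the median log2 fold change in the authors' deposited table was -1.92, and each gene list below is read beside those 2 values.

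Among chromatin regulators all 12 listed regions, in 12 genes, were lost, beside 88.7% of all regions with a gene. The median log2 fold change of the 12 was -1.86 in the authors' deposited table, beside -1.92 over all regions with a gene. They came from several complexes. Of Polycomb repressive complex 1, Pcgf3 is described above, and Ring1, its ubiquitin ligase subunit, had 3.49 ± 1.45 normalised reads in KCl against 12.6 ± 1.98 in control. Of the BAF remodelling complex, the ATPase gene Smarca2 had 0.92, 2.27 and 6.81 in KCl against 10.2, 11.7 and 14.7 in control, and Arid1b had a log2 fold change of -1.77 in the authors' deposited table. Rcor1, the CoREST corepressor that recruits histone demethylase and deacetylase to neuronal genes, had 1.84, 3.79 and 2.72 in KCl against 12.2, 13.3 and 13.5 in control. The histone demethylase gene Kdm3a, which acts on H3K9, had 3.45 ± 1.98 in KCl against 14.0 ± 2.52 in control. Kdm5b and Kdm2a, which act on H3K4 and H3K36, had log2 fold changes of -1.68 and -1.75 in the authors' deposited table. Hmgn3, Setbp1 and Mll5 were also lost. No gene for H3.3 itself or its HIRA, ATRX and DAXX chaperones was listed.

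All 17 regions of 15 RNA-binding, splicing and translation genes were lost, again beside 88.7% of all regions with a gene. Their median log2 fold change was -1.82 in the authors' deposited table, beside -1.92 over all regions with a gene. Splicing regulators were Celf2, with 1.84, 3.03 and 1.36 normalised reads in KCl against 9.16, 10.0 and 11.1 in control, and Mbnl1, Khdrbs2, Hnrnpc and Hnrnpu. Nxf1, the receptor that carries mRNA out of the nucleus, had 1.84, 3.03 and 1.36 in KCl against 9.16, 12.5 and 11.1 in control. Genes of translation initiation were also lost. Eif4e, the cap-binding factor, had 1.84, 3.79 and 1.36 in KCl against 10.2, 10.0 and 12.3 in control, and Eif4g3, Eif4h and Eif3h had log2 fold changes of -2.15, -1.76 and -2.14 in the authors' deposited table. The ribosomal protein gene Rps23 lost a region on each side, 946 bp before its start and 151 bp past its end, with 3.24 ± 2.01 and 4.10 ± 1.64 in KCl against 10.9 ± 1.67 and 13.1 ± 2.42 in control. Rpl18, Rpl24, Tnrc6b and Lsm14a completed the list.

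**Figure D5:**
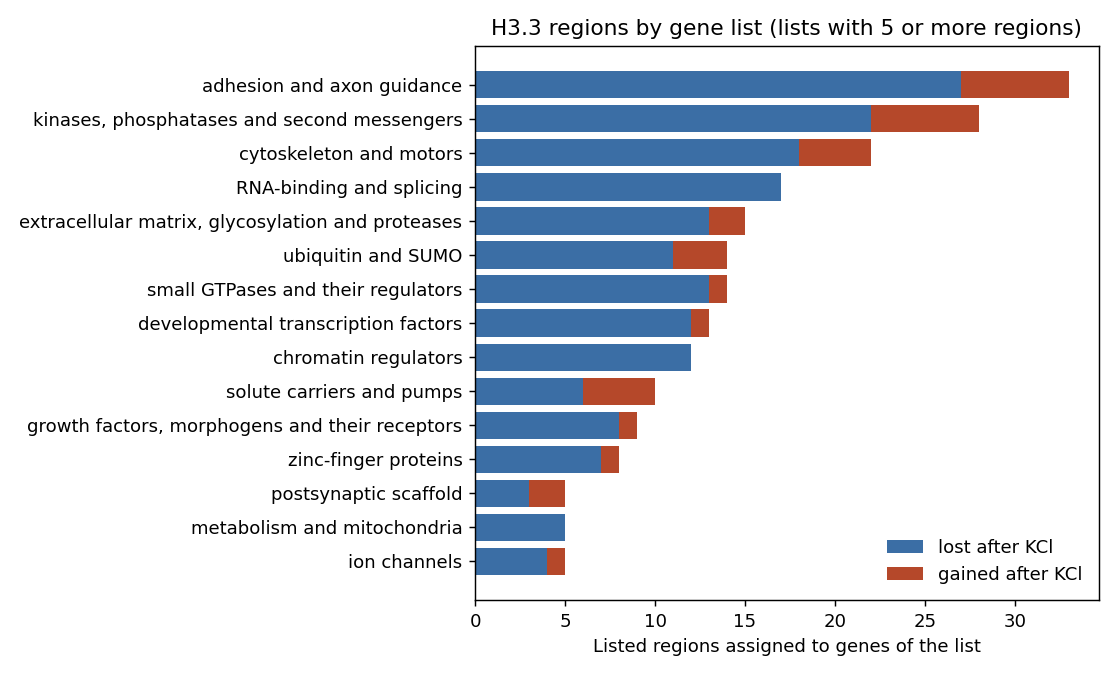
Number of listed regions assigned to genes of each list (horizontal axis) for the lists with 5 or more regions (vertical axis), lost regions in blue and gained regions in red, by deposited gene names. The chromatin, RNA-binding and metabolism lists hold lost regions alone, and the solute carrier list has 4 gained regions of 10; with genes of the reference annotation added, the metabolism list holds 3 gained regions of 10.

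By deposited names, 1 of the 26 immediate-early genes and 1 of the 23 late-response genes in the lists carried a listed region. Over all genes the table held 432 gene names, beside 22350 protein-coding genes in the annotation. At such a share a short list would hold few or no listed genes, so an absence carries no information. A list of H3.3 regions does not measure transcription. Per1, a clock gene induced by calcium, was the only immediate-early gene with a deposited name in the table, and Sorcs3, a sorting receptor, with 4.70 ± 2.03 normalised reads in KCl against 14.3 ± 2.78 in control, the only late-response gene. None of Fos, Arc, Egr1, Npas4 or Bdnf was listed, and the region near Ptgs2 carries no deposited name. Of the circadian factors, Clock gained a region in an intron, with 11.0, 17.4 and 17.7 in KCl against 3.05, 5.00 and 4.91 in control, and Tef was lost with 3.56 ± 2.56 in KCl against 12.3 ± 1.87 in control. Among developmental transcription factors 12 of 13 regions were lost, Clock being the gain, and the median log2 fold change was -1.97 in the authors' deposited table. Nfia, a driver of astrocyte fate that neurons also express, had 2.76, 2.27 and 2.72 in KCl against 13.2, 10.0 and 11.1 in control. The nuclear receptor genes Rora, Thrb, Rara and Nr3c2 were all lost, and Thrb, the thyroid hormone receptor, had 1.82 ± 2.41 in KCl against 10.4 ± 0.562 in control but 1.15 times input in KCl against 1.13 times in control. Zinc-finger genes lost 7 of 8 regions, and the gain was at Zbtb16 with a log2 fold change of 2.06 in the authors' deposited table.

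By deposited names, ion channel genes had 5 regions, 4 lost and 1 gained, and all were calcium channel subunits. The lost region in the potassium channel gene Kcna3, assigned by the reference annotation, makes it 5 lost of 6. Beside the gain at Cacna1b, the L-type genes Cacna1c and Cacna1d were lost with 3.94 ± 1.88 and 2.28 ± 0.440 normalised reads in KCl against 13.6 ± 1.65 and 10.1 ± 0.947 in control. Cacna1e, the R-type subunit, and Cacna2d1, an auxiliary subunit, were lost with 3.54 ± 0.698 and 2.73 ± 1.82 in KCl against 12.8 ± 2.33 and 11.7 ± 2.27 in control. Calcium export showed both directions. Atp2b2, a plasma membrane calcium pump, had 12.9, 10.6 and 16.3 in KCl against 3.05, 0.83 and 7.36 in control, and Slc8a2, a sodium-calcium exchanger, had 3.74 ± 1.76 in KCl against 14.1 ± 3.75 in control. Of the signalling list, the calcineurin subunit gene Ppp3ca had 0.92, 3.03 and 2.72 in KCl against 9.16, 11.7 and 11.1 in control, and Camk1d had 3.04 ± 1.38 in KCl against 12.9 ± 2.63 in control. These 2 genes were picked after their values were seen.

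At synapse genes the NMDA receptor gene Grin2b lost 2 intronic regions, with 2.78 ± 0.977 and 3.69 ± 2.59 normalised reads in KCl against 10.9 ± 1.67 and 13.8 ± 1.41 in control. Gabrg3, a GABA-A receptor subunit, was lost over 300 bp with 5.51, 6.82 and 5.45 in KCl against 20.4, 19.2 and 14.7 in control. The release-site genes Erc2 and Ppfia1 were lost with log2 fold changes of -2.22 and -2.27 in the authors' deposited table. Postsynaptic scaffolds had 3 lost and 2 gained regions, the gains at Iqsec1 and at 1 of 3 regions of Dlgap1.

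Adhesion and axon guidance was the list with the most regions, 27 lost and 6 gained in 25 genes, or 81.8% lost. Its gains were at Ephb1, Cdh13, Ntm, Robo1, Ptprd and Ptprn2, and the last 3 also had lost regions. Robo1, a receptor for Slit, had 13.0 ± 2.13 normalised reads in KCl against 3.5 ± 1.33 in control at one intronic site and 3.04 ± 1.38 in KCl against 12.3 ± 2.37 in control at another. Outside this list, Dab1, the adaptor of Reelin signalling, had 2.43 ± 1.59 and 2.38 ± 0.896 in KCl against 10.8 ± 1.26 and 11.4 ± 1.65 in control at 2 intronic regions. The ligand gene Reln is described above, and the pathway as a whole was not tested. In the adhesion and guidance list, Slit2, Plxna2, Sema4b, Sema6c, Sema7a, Unc5c, Dscam and Pcdh15 were lost alone.

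The signalling list, of kinases, phosphatases and second messengers, had 22 lost and 6 gained regions in 20 genes (78.6% lost). Not all of its members are signalling enzymes, and 2 of the 6 gains were at Cdk5rap2, which is not one. Gains were at Pak6, at Dgkb, at the lipid kinase gene Pip4k2b, at Gna13, a G protein alpha subunit with 11.4 ± 1.90 normalised reads in KCl against 2.79 ± 2.15 in control, and at Cdk5rap2, a centrosome protein with 2 gained regions. The starts of the Cdk5rap2 regions were 2300 bp apart, both in introns, with 12.3 ± 1.31 and 12.7 ± 2.29 in KCl against 3.08 ± 0.590 and 3.55 ± 1.68 in control. Dgkb had beside its gained region a lost one, their starts 19080 bp apart, with 3.68, 3.79 and 2.72 in KCl against 15.3, 15.0 and 14.7 in control. Small GTPases and their regulators were lost at 13 of 14 regions, Iqsec1 being the gain. Arf4, which recruits coat proteins to the Golgi, had 4.59, 2.27 and 5.45 in KCl against 17.3, 15.0 and 14.7 in control, and Ralgapa1, an inhibitor of Ral, had 1.88 ± 1.90 in KCl against 10.9 ± 2.30 in control. Cytoskeleton genes had 18 lost and 4 gained regions, the gains including Shroom3, Spag16 and Nck2. Shroom3, which organises actin at cell apices, had 10.9 ± 1.05 in KCl against 2.46 ± 1.07 in control.

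Ubiquitin and SUMO pathway genes had 11 lost and 3 gained regions. The gains were at Ube4b, a ligase gene, with 11.9, 12.1 and 15.0 normalised reads in KCl against 1.02, 5.00 and 3.68 in control, and at Hectd2 and Klhl23. Losses included the SUMO proteases Senp5 and Senp2, the adaptor Kbtbd11, the ligase Nedd4l at 2 regions, and Park2. Extracellular matrix and glycosylation genes had 13 lost and 2 gained regions, the gains at Col2a1 and Serpinb6c.

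Solute carriers and pumps had the largest share of gains among lists with 10 or more regions, 4 of 10, at Slc2a1, Slc25a12, Slc35f3 and Atp2b2, and 60.0% of their regions were lost beside 88.7% of all regions with a gene. Slc25a12, the calcium-regulated aspartate-glutamate carrier of mitochondria, had 15.6, 10.6 and 17.7 normalised reads in KCl against 3.05, 5.83 and 2.45 in control. The difference between the lists was not tested. The lists were chosen with earlier results of these data known and some were trimmed after values were seen, which can shape such shares. By deposited names all 5 regions of metabolic enzymes were lost. With genes of the reference annotation added, this list had 7 lost and 3 gained regions, the gains near Ptgs2 and Acadm and in Mrpl45. Sqle, an early enzyme of sterol synthesis, had 3.04 ± 1.38 in KCl against 12.2 ± 1.95 in control, and Acat2, which makes acetoacetyl-CoA, 4.46 ± 0.919 in KCl against 14.5 ± 1.90 in control. Fads2 and Elovl6, which desaturate and lengthen fatty acids, had 2.94 ± 1.37 and 3.34 ± 1.05 in KCl against 12.7 ± 1.28 and 13.1 ± 1.93 in control. Cyp26b1, which degrades retinoic acid, had 5.42 ± 0.108 in KCl against 16.3 ± 3.5 in control in its 3′ UTR. Other pairs of related genes, noticed after their values were seen, were App with its protease Bace1, at 4.25 ± 2.32 and 3.13 ± 2.27 in KCl against 13.0 ± 3.20 and 11.1 ± 1.07 in control, and the transcription-coupled repair genes Ercc6 and Ercc8, at 5.21 ± 2.56 and 3.64 ± 2.40 in KCl against 15.9 ± 2.22 and 12.9 ± 3.19 in control. The Ercc8 region lay in an intron of its neighbour Ndufaf2.

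Of the cell type markers, 2 of 16 astrocyte, 1 of 17 endothelial and pericyte and 1 of 17 interneuron genes had a listed region. Over all genes the table held 432 gene names, beside 22350 protein-coding genes in the annotation. The astrocyte markers Gpc5 and Slc4a4 were lost with 3.1 ± 2.82 and 5.13 ± 2.32 normalised reads in KCl against 12.3 ± 1.07 and 17.3 ± 2.77 in control, the vessel marker Slc2a1 was gained and the interneuron marker Reln was lost. None of the 18 oligodendrocyte lineage, 15 microglia or 23 neuron markers was listed under the name in the list, although a region lay in Mtap2. With lists this short, an absence carries no information. A table of changed regions does not show the level of the other markers, so the cell type of the cultures was not checked here. The part of other cells in these results was not tested.

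Several regions lay in the same gene at 33 genes, 6 with 3 regions and 27 with 2. At 27 of the 33 all regions were lost, at 1 all were gained, and at 5 both occurred, at Ptprd, Dlgap1, Ptprn2, Robo1 and Dgkb. Phactr1, which binds actin and protein phosphatase 1, had 3.60 ± 0.535, 4.2 ± 2.04 and 2.28 ± 0.440 in KCl against 12.3 ± 0.149, 13.2 ± 2.84 and 10.4 ± 1.03 in control. Fam125b had 3.25 ± 1.68, 5.67 ± 0.336 and 3.14 ± 0.490 in KCl against 12.8 ± 2.86, 18.2 ± 1.59 and 11.9 ± 2.52 in control, and Fyn 5.07 ± 1.97, 3.49 ± 1.45 and 3.70 ± 0.938 in KCl against 15.4 ± 3.43, 12.6 ± 2.27 and 13.6 ± 2.08 in control. In Ptprd, a synaptic receptor phosphatase, a gained region with 11.0, 9.09 and 13.6 in KCl against 3.05, 1.67 and 3.68 in control lay 405704 bp from the start of the deposited transcript. A lost region 389064 bp from the same start had 4.59, 2.27 and 0 in KCl against 12.2, 10.0 and 13.5 in control. In Dlgap1, a scaffold of the postsynaptic density, 2 lost regions had 3.70 ± 0.938 and 5.53 ± 1.26 in KCl against 14.3 ± 4.49 and 16.7 ± 3.83 in control, and the gained one 13.8 ± 2.49 in KCl against 4.04 ± 0.936 in control.

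The 2 hr regions were not the regions listed at the other times. None of the 689 overlapped any of the 457 regions listed after 30 min or the 667 listed after 5 hr of KCl, and within 1000 bp there were 0 and 1. That one lay in Etnk1, an ethanolamine kinase, with 0.92, 4.55 and 4.09 normalised reads in KCl against 13.2, 13.3 and 14.7 in control at 2 hr. The neighbouring 5 hr region, 800 bp away, had a log2 fold change of -1.59 and an adjusted p of 0.0989 in the authors' deposited table. Within 10 kb there were 4 and 7 regions. Those near a 30 min region were at Tuba4a, Rai14 and Sqle, lower after KCl in both tables, and at Eml1, higher at 2 hr and lower at 30 min. Those near a 5 hr region were at Cacna1b and Ube4b, higher in both tables, at Ercc8, Pdzd8, Ptpn21 and Etnk1, lower in both, and at 1 site between genes, higher at 2 hr and lower at 5 hr. By gene name 33 genes were shared with the 30 min table (7.64% of the 2 hr genes and 9.88% of the 30 min genes) and 45 with the 5 hr table (10.4% and 9.96%). Shared genes were long, with a median of 156478 bp against 64313 bp over all 2 hr genes. Each time had its own control libraries. A region absent from a list was not necessarily unchanged at that time, since the lists hold selected regions alone.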

How the data were processed

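H3.3 chromatin immunoprecipitation and sequencing libraries of 3 KCl and 3 control cultures and 1 input per group were used. The mm9 build was used with bedtools 2.16.2 and Bowtie 0.12.7, per the submitters' processing notes. For the region caller and the test behind the p-values, no name was found in the labels or headers. The authors deposited one table of changed regions, which holds per region the packed normalised counts of each group, scaled per library by the authors. The deposited signal is the mean of those counts per group. The deposited ratio is that mean over input, with the scaling of input not given. The authors' log2 fold change is the KCl mean over the control mean. The authors' p-values are given per region, with an adjusted value.

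The members and gene lists were chosen with earlier results of these data known, and some lists were trimmed after values were seen. Reads were recovered by dividing each value by the step of 1 read in its library, and 100.0% of values came out whole within 0.1. Because the table holds only regions already listed as changed, no count test was run on them. SDs, exact Poisson intervals of summed reads and exact binomial intervals of shares (95%) were computed with Python 3.11.15, pandas 2.3.3, numpy 2.4.6 and scipy 1.17.1, sequence with pysam 0.24.0 and figures with matplotlib 3.10.9. The steps were tested on simulated data. Genes and parts of genes came from GENCODE M1 (22350 protein-coding genes, NCBIM37). GC content was set beside that of 12778424 genome windows of 200 bp.

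Named genes were the 8 largest gains and losses with a gene symbol, up to 4 members per gene list and direction, genes with several regions, the 3 longest regions each way, regions near those of other times, and the first regions that disagreed with input. Others are named as chosen after their values were seen. Alternatives were other thresholds, unnormalised reads, leaving out each library, ratios to input, pseudocounts, wider windows and other gene assignments. The packed values carry no library names, so the libraries left out are positions in the table. Some genes are not reported here, though list counts include them.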

Additional observations from a re-analysis of the deposited data

How the results depend on the processing

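With an adjusted p of 0.01 or less in the authors' deposited table, 15 lost and 2 gained regions were left, and with at least a 4-fold change 274 lost and 51 gained. Leaving out each library in turn and asking for at least a 3-fold difference gave 504 to 571 lost and 89 to 98 gained regions, with 13.7 to 16.1% gained. On reads without the authors' normalisation 688 of 689 regions had groups that did not overlap. Among regions with at least a 2-fold difference relative to input, 99.6% moved the same way as the count. That cut and the listing on the same count both favour this, and regions with a smaller difference are left out of the share. The share of lost regions at promoters was 13.3% with the strand-aware start and 9.01% with reference gene starts, the share of gained ones 6.12% with reference gene starts, and 34.4% of lost regions were intergenic by reference gene spans. With reference genes added, the growth factor list had 14 lost regions. Only 1 region lay within 1000 bp of a 5 hr region. Leaving out 1 library moved the fold change by over 1.5 times at 27 of the 108 regions named by the rule and changed the sign at 0 of them. With reference genes added, the metabolism list had 7 lost and 3 gained regions. Relative to input, 9 of the regions named by the rule had a log2 change above 0 where the count fell, which were Bai3 (0.56), Ptprk (0.29), Hddc2 (0.11), Fyn (0.98), RNaseP_nuc.1 (0.51), Nudt4 (1.11), Ptprn2 (0.053), Chn2 (0.31) and Cadm1 (0.15), and the cause was not tested. Thrb, named outside the rule, likewise had 1.15 times input in KCl against 1.13 times in control. The assignment by strand-aware starts, by reference starts and by reference genes was chosen after seeing the data. No paired analysis was possible because the packed values carry no replicate numbers.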
